A study of Mus musculus with 6 samples.

Results

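Circular RNAs (circRNAs) that were abundant in the cortex of every animal were examined. These circles were chosen by their own values, as all circRNAs with at least 100 SRPBM in each of the 6 libraries, apart from those at the X-chromosome locus of mmu_circ_0011085, and 335 of the 11171 listed circRNAs met this rule. SRPBM is the number of reads that span a back-spliced junction, scaled to the mapped reads of the library. The mice were C57BL/6 males (substrain J by the study's methods) of 6 weeks, and each of the 6 libraries came from the cortex of 1 mouse. The 3 Control mice received saline. The 3 TLE mice received scopolamine methyl bromide and then pilocarpine, which brings on Status Epilepticus (SE). Their seizures were stopped with diazepam, and their cortex was taken 24 h after SE. This is an acute time point in a chemically induced model, and spontaneous seizures were not part of the group definition. In these libraries of whole cortex, fewer cells of a type and less RNA per cell cannot be told apart.

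A circRNA arises when the end of an exon is spliced to the start of the same exon or of one upstream of it, so that the product is a closed ring. Having no free ends, circles resist exonucleases and can build up in cells that divide rarely, and the brain is known as a tissue rich in them. Many come from genes for synaptic proteins, chromatin factors and signalling enzymes, often beside long introns. Some circles bind microRNAs or proteins, while for most no function is known.

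The reads that define a circle cross its junction, and each value below counts reads across 1 such sequence. Junctions are therefore shown for 8 of the 10 circles of highest mean. The most abundant circles, mmu_circ_0003712 and mmu_circ_0010875, are left out, as neither has both ends on exon boundaries of 1 annotated transcript. Each line gives 30 bases of the spliced RNA in the letters of DNA, 5′ to 3′ on the strand of the host gene, read from GENCODE M21 transcripts of mouse build GRCm38 (mm10). Lower case is the end of the last exon of the circle, and capitals are the start of its first exon.
Gigyf2 circle, mmu_circ_0005485, chr1:87364104-87380008, plus strand: gaagaaaagatgtagGCTCCGTGCTCTGTC
Dtnb circle, mmu_circ_0001375, chr12:3617606-3648389, plus strand: gagcattcctcttggTGAGGGCCGAGGCAA
Ankib1 circle, mmu_circ_0008150, chr5:3747021-3772787, minus strand: tgcttcgagctcacgAATGTGAAACATGTT
Zfp148 circle, mmu_circ_0003257, chr16:33421321-33434974, plus strand: gcactcaatgtccctGATAGAAGAGAAGAA
Phf21a circle, mmu_circ_0006446, chr2:92214049-92230724, plus strand: ttgagtgagaaacagGGGACTGGAGAGCTG
Unc79 circle, mmu_circ_0001198, chr12:102991350-103021876, plus strand: gcttacagtacacagTTGCTTCCAAGATCC
Zbtb20 circle, mmu_circ_0003327, chr16:43569681-43577748, plus strand: ccgggtcatctgattATGCAGCCACTCTCT
Fat3 circle, mmu_circ_0010335, chr9:16374949-16378254, minus strand: tagatgatgagagtgGACGGACATGTGATA
The remaining junctions belong to circles that were higher in TLE and are described later, and they were picked for display after their values were seen.
Homer1 circle, mmu_circ_0002165, chr13:93341756-93356079, plus strand: gccatttccacatagGGAGCAACCTATCTT
Cdyl circle, mmu_circ_0001916, chr13:35815909-35816575, plus strand: ctgttaatggaaaagGTGGAAAGTATCGTT
Stk3 circle, mmu_circ_0002783, chr15:35072430-35115645, minus strand: atacatccgatgaggTAAGCTAAAAAAGCT
ENSMUSG00000070823 circle, mmu_circ_0008142, chr5:37182081-37194304, plus strand: ccaggttccccaaagCTCCAAAACTCTAAG

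The libraries held between 32504 (TLE 1) and 56516 (TLE 3) junction reads, taking the smallest value above 0 in a library as 2 reads, and the limit of 100 SRPBM was reached with 10 to 12 reads. Library totals ran from 330961 to 360023 SRPBM in Control and were 335753, 409021 and 489032 SRPBM in TLE 1, 2 and 3. TLE 3 stood apart with the highest total, so each fold change is given on the deposited values and again after scaling the libraries to equal totals. No general marker gene could be measured in a table of circles. Of the marker lists for 7 cell types, no host had a circle among the 335, and the microglia and oligodendrocyte precursor lists were at 0 in every library.

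The 335 circles made up 3.00% of the listed circRNAs and held 37.7, 38.5 and 38.6% of the library total in Control and 39.3, 36.8 and 36.5% in TLE. The Control mean was 38.3% ± 0.475 (SD, n = 3), the TLE mean was 37.5% ± 1.52 (SD, n = 3), and the groups overlapped (exact permutation test, two-sided, p = 0.4). With 3 mice against 3, this exact test cannot go below p = 0.1. Their summed level was 132663, 127427 and 139032 SRPBM in Control and 131806, 150631 and 178321 SRPBM in TLE. TLE 1 lay within the Control range and TLE 2 and TLE 3 above it, and the difference of 20545 SRPBM did not exceed the spread between mice (exact permutation test, two-sided, p = 0.3). Without TLE 3 the difference was 8178 SRPBM, and without TLE 1 it was 31435 SRPBM.

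**Figure D1:**
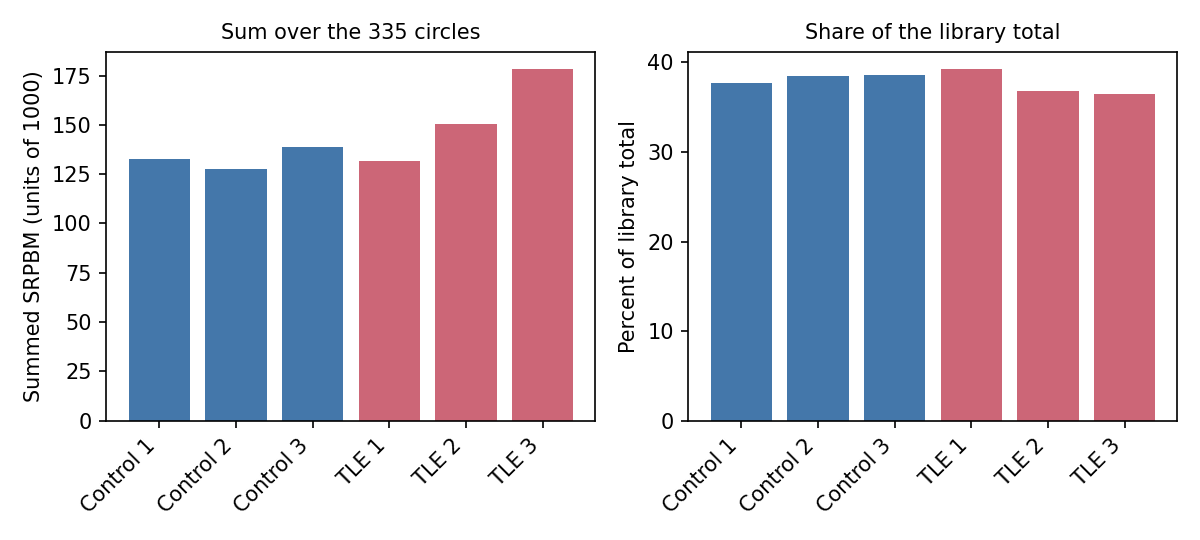
Left, summed SRPBM (axis in units of 1000) of the 335 circles in each library, and right, their percent of the library total, with Control in blue and TLE in red and 1 bar per mouse. The sum ran from 127427 SRPBM (Control 2) to 178321 SRPBM (TLE 3), while the share stayed between 36.5 and 39.3%.

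Levels were spread unevenly within the set. The mean over the 6 libraries ran from 126 to 4909 SRPBM with a median of 275 SRPBM, and 25 circles had a mean of 1000 SRPBM or more. The 10 highest circles carried 17.1% of the summed level and the 100 highest 61.6%. Junction reads over all 6 libraries ran from 84 to 3272 per circle.

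The most abundant circle was mmu_circ_0003712 at chr17:6137211-6139156, for which the table lists no host and which lies in Tulp4, a gene of the tubby-like family. It had 4965, 4499.8 and 4393 SRPBM in Control and 5247, 4822 and 5529 SRPBM in TLE. The lowest TLE library was below the highest Control library, so the groups overlapped. The next circle, mmu_circ_0010875, lies on an unplaced scaffold with no listed host. Neither this circle nor the Tulp4 circle has both ends on exon boundaries of 1 annotated transcript. The scaffold circle had 3153, 3319 and 3178 SRPBM in Control and 4638, 3586 and 3176 SRPBM in TLE, where TLE 1 was the high library.

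The third was the circle of Gigyf2, a protein that represses translation. It had 2863, 2464 and 2894 SRPBM in Control and 2582, 3560 and 3582 SRPBM in TLE, with TLE 1 inside the Control range. The Dtnb circle, from the gene of beta-dystrobrevin, had 2675, 2092 and 2817 SRPBM in Control and 2303, 2534 and 3591 SRPBM in TLE. Only TLE 3 exceeded every Control library there. The Ankib1 circle, from a gene of a RING-type ubiquitin ligase, had 1863, 1720 and 1800.2 SRPBM in Control and 1849, 2052 and 2336 SRPBM in TLE.

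The circles of Zfp148, a zinc finger transcription factor, and Phf21a, a reader of unmethylated histone H3 in a demethylase complex, followed. The Zfp148 circle had 1564, 1636 and 1860.5 SRPBM in Control and 1673, 1675 and 2328 SRPBM in TLE. The Phf21a circle had 1581, 1608 and 1706 SRPBM in Control and 1281, 1876 and 2388 SRPBM in TLE, the widest TLE range of this pair. Unc79 encodes an accessory protein of the sodium leak channel. Its circle had 1410.0, 1441 and 1637 SRPBM in Control and 1601, 1876 and 1895 SRPBM in TLE.

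The Zbtb20 circle, from the gene of a zinc finger repressor, had 1880.1, 1348 and 1895 SRPBM in Control and 1735, 1043 and 1904 SRPBM in TLE. It was the sole circle of the 10 with a lower mean in TLE. The Fat3 circle is a single exon of an atypical cadherin gene and had 1290.4, 1292 and 1602 SRPBM in Control and 1405, 1973 and 2137 SRPBM in TLE. None of the 10 passed an unadjusted p of 0.05 in limma. Their log2 fold changes lay between -0.16 (Zbtb20) and 0.38 (Fat3) on the deposited values and between -0.38 and 0.15 for these same circles after rescaling.

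**Figure D2:**
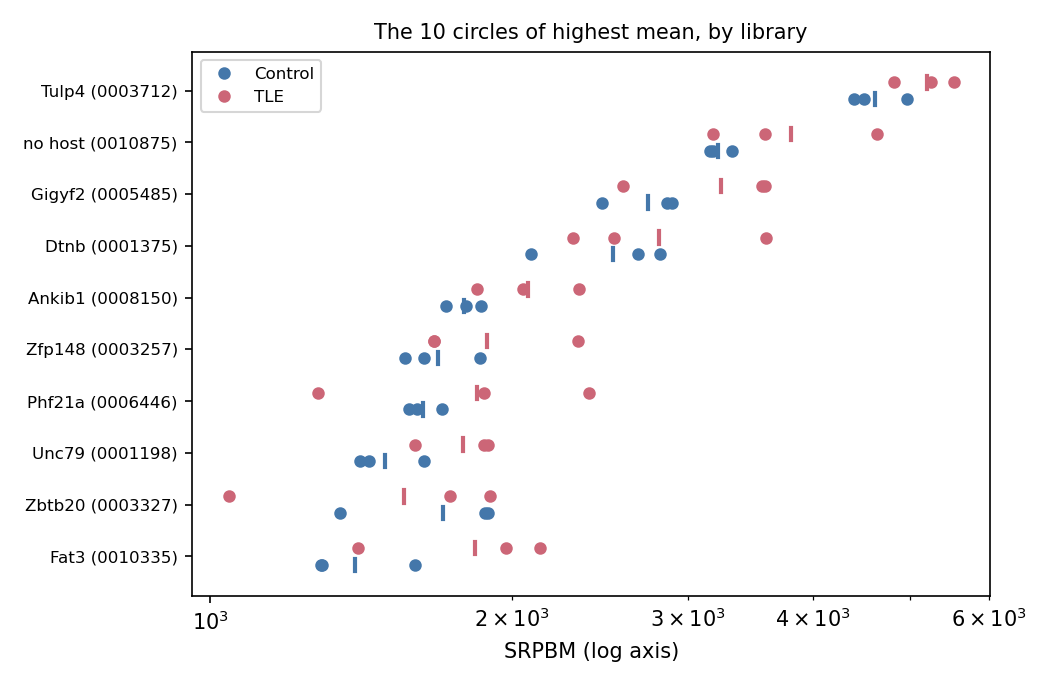
SRPBM (log axis) of the 10 circles of highest mean, with 1 point per library, Control in blue and TLE in red, and a vertical bar at each group mean. The groups overlap in each of the 10, and the Tulp4 circle leads with 4393 to 5529 SRPBM.

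Near the limit, the 3 circles with the lowest minimum were those of Ddhd1, a phospholipase, Akap7, an anchoring protein of protein kinase A, and Mlip, each at 102 SRPBM in Control 2. Just outside, the circles of Mark3 and Ptp4a2 and the hostless mmu_circ_0003384 had their minimum of 96.4 SRPBM in TLE 2. A minimum in every library also leaves out circles that reached the limit throughout 1 group but missed it in any library of the other. It left out 85 circles at 100 SRPBM or more in each Control library but not in each TLE library, and 103 of the opposite kind.

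Nearly all of the 335 circles came from annotated genes. The table lists 1 host for 322 of them, several hosts for 3 and none for 10, and 4 of those 10 could be placed in a gene by GENCODE. Counting both sources, 272 hosts were represented, of which 49 had at least 2 circles in the set. Anks1b, encoding a scaffold of the postsynaptic density, and Slc8a1, encoding a sodium/calcium exchanger, had 4 each. The 4 Slc8a1 circles were very unequal, with 1525 SRPBM for a single-exon circle (mmu_circ_0003868) and 181 to 271 SRPBM for the other three. The Anks1b circles had 1360, 359, 354 and 171 SRPBM. Within the set, 87 circles shared 1 end with another of its circles, so they are not independent of each other.

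Most of these circles were the main circle of their host. Of the 329 with a host, 267 (81.2%) were its highest circle and 214 (65.0%) held more than 50% of the SRPBM of all its circles, with a median of 70.2%. The corresponding share of highest circles was 32.3% among all other circRNAs. Since the rule selects for level, this is a description and carries no test. The Hipk3 circle, a single exon of a protein kinase gene, was its host's only circle.

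Both ends lay on exon boundaries of 1 annotated transcript in 310 of the 335 circles (92.5%; 95% Wilson interval 89.2 to 94.9%), against 83.0% (82.3 to 83.7%) of all other circRNAs. The intervals cover counting error and treat circles as independent. Among placed circles, 39 of 310 were single exons (12.6%; 9.34 to 16.7%), against 3.70% (3.33 to 4.11%) of the others. More than 10 exons were found in 5 of them (1.61%; 0.691 to 3.72%), against 7.61% of the others. For the others above 0 in at least 3 libraries, these shares were 5.23% and 6.48%. The median was 4 exons in both sets, with 598.5 and 612 exonic bases. Whether the sets differ was not tested.

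**Figure D3:**
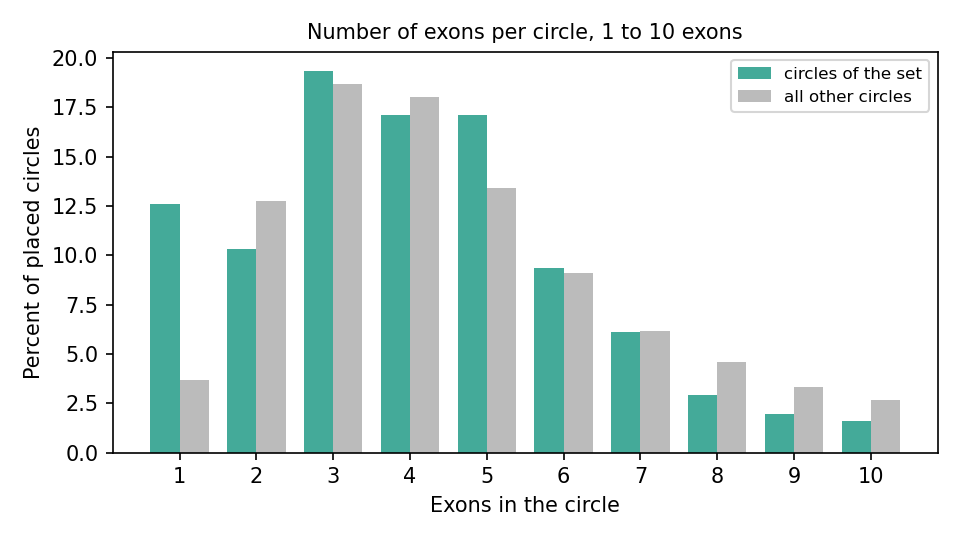
Percent of placed circles with each number of exons from 1 to 10, for the 310 placed circles of the set (green) and all other placed circRNAs (grey). Single-exon circles made up 12.6% of the set and 3.70% of the others, and the remaining classes were closer.

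The circles began early in their hosts and were flanked by long introns. The first circular exon was exon 2 of the transcript in 151 of 310 (48.7%; 95% Wilson interval 43.2 to 54.3%), against 29.1% (28.2 to 30.1%) of the others. The median intron before the circle was 19976 bases and the one after it 20832 bases, against 10043 and 8415 bases for the others. Where the transcript codes for protein, 82 of 304 circles (27.0%) held the annotated start codon, against 15.2% of the others. The gaps were smaller against the others above 0 in at least 3 libraries. Of those, 34.3% began at exon 2 and 17.7% held the start codon, and their median introns were 13003 and 10733 bases. Coding sequence alone made up 213 of the 304.

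The genomic span had a median of 13840 bases, against 14766 bases for the others, whose interval of the median (14326 to 15295) lay within that of the set (11956 to 16739). Among the longest spans was that of Atxn1, the gene of ataxin (161067 bases). The shortest were single exons of Med13l, a Mediator subunit (238 bases), and of the long noncoding RNA Pvt1 (318 bases), and a circle in Gm9762 (374 bases). The Atxn1 circle was the 11th in level, and joins 3 exons outside the coding sequence.

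Replicates of Control agreed more closely than those of TLE on the deposited values. The median SD of log2 SRPBM was 0.25 in Control and 0.35 in TLE. After rescaling the median SDs were 0.23 and 0.26. The counting value, the root of a circle's mean counting variance, had medians of 0.28 in Control and 0.26 in TLE. Under counting error alone, the SD over so few libraries falls below this value in most circles. Neither the median SDs nor the counts of circles above it can therefore show a spread at or below counting error. The SD exceeded the counting value in 162 circles in Control and 243 in TLE, and in 158 and 188 after rescaling. For the 50 highest circles the rescaled median SD was 0.13 in Control and 0.19 in TLE, with a counting value of 0.14 in each. Reads of the circles in replicate pairs differed by a chi-square of 1.24 to 1.36 per degree of freedom in Control and 1.69 to 2.30 in TLE, where counting error alone gives about 1.

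The steadiest circles were those of Nsd1, a histone methyltransferase, Ncoa2, a nuclear receptor coactivator, and Setd3, an actin histidine methyltransferase. The Nsd1 circle had 393, 353 and 353 SRPBM in Control and 341, 342 and 312 SRPBM in TLE. The least steady were those of Mlip, Wdr7 and Grin2a. The Mlip circle had 197, 102 and 267 SRPBM in Control and 103, 307 and 355 SRPBM in TLE, and the circle of Grin2a, an NMDA receptor subunit, had 239, 112 and 181 SRPBM and then 320.2, 123 and 277 SRPBM.

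Fold changes of the 335 circles were small, which the rule favours, since it leaves out circles that fall below the limit in any library. On the deposited values the median log2 fold change (TLE minus Control) was 0.17, the same as the 0.17 of all 4271 circRNAs tested. Of the set, 250 circles (74.6%) were above 0, against 60.5% of all tested. Fold changes were narrower in the set (SD 0.26 against 0.59), so the same median puts a larger share of it above 0. After rescaling to the same total the median was near 0, at -0.04 in the set and 0.01 over all. Then 150 circles (44.8%) were above 0, against 50.4% of all tested. The 95% interval lay wholly between -1 and 1 in 256 circles (76.4%) as deposited and 302 (90.1%) rescaled, against 9.04 and 11.9% of all tested, which have fewer reads. TLE 3 had the highest value of 182 circles, and after rescaling of 33.

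**Figure D4:**
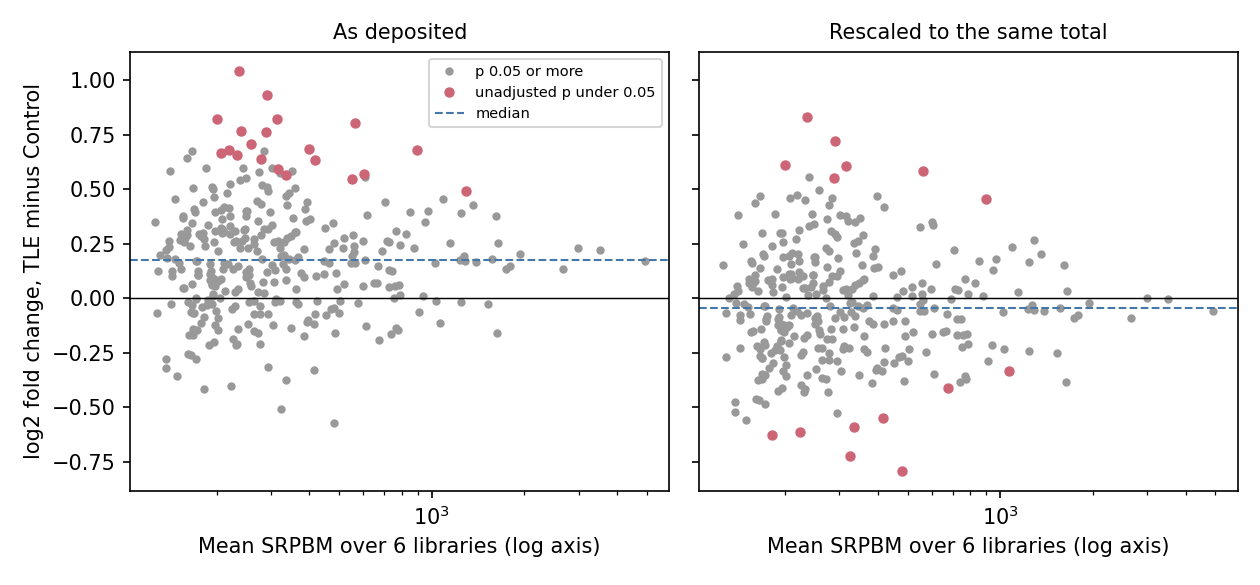
Log2 fold change (TLE minus Control) of the 335 circles against their mean SRPBM (log axis), on deposited values (left) and rescaled values (right), with circles at an unadjusted p under 0.05 in red and the set's median as a dashed line. The median lies at 0.17 on the left and -0.04 on the right, and the red points turn from 20 higher and 0 lower to 7 higher and 8 lower.

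No circle of the set reached the paper's threshold of a log2 fold change of 1.5 with p under 0.05, against 1.26% higher and 0.304% lower of all circRNAs tested. This absence is partly set by the rule, which leaves out circles low in 1 group. Among the 661 circles with a mean of 100 SRPBM or more, 5 were higher and 2 lower at this threshold. At an unadjusted p under 0.05 in limma alone, 20 circles of the set were higher in TLE and 0 lower, against 4.12% and 1.08% of all tested. After rescaling 7 were higher and 8 lower, against 2.72% and 2.15%. The smallest adjusted p (limma, Benjamini-Hochberg over the 4271) was 0.838 as deposited and 0.939 rescaled, so no single circle passed the correction. The 20 became 8 without Control 1, 9 without Control 2, 58 without TLE 1 and 13 without TLE 3. With eBayes without a trend in the variance, 1 was higher and 0 lower. Shares of all circRNAs tested were not computed for these refits, so the counts show only how the set moved.

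Counted by overlap, 43 circles had every TLE library above every Control library and 3 had every one below, against 8.94% and 2.11% of all tested. After rescaling these were 15 and 27, against 5.08% and 4.96%. In 12 circles TLE lay above on both scales, and in 2 it lay below on both. The matching share of all circRNAs tested was not computed for both scales together, so these counts carry no comparison. Leaving out a library widens such counts by construction, and the count above was 130 without TLE 1, with no matching share of all tested.

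The circle of ENSMUSG00000070823, where GENCODE places the gene Gm1043, had the smallest p on the deposited values. After rescaling the Pip5k1b and Pclo circles, both lower in TLE, had smaller ones. The ENSMUSG00000070823 circle had 188, 158 and 241 SRPBM in Control and 331, 430 and 398 SRPBM in TLE, without overlap on either scale. Its log2 fold change was 0.93 ± 0.27 (SE; limma, adjusted p = 0.838), and 0.72 after rescaling. On the deposited values it was, with those of Cdyl and Stk3, 1 of 3 circles whose unadjusted limma p stayed under 0.05 without any 1 library. On the rescaled values this held for it and for the lower circles of Pip5k1b and Pclo, while the Cdyl circle passed in 2 of 6 such fits and the Stk3 circle in 5.

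Cdyl encodes a chromodomain co-repressor, and its circle is a single exon of 667 bases. It had 735, 660.1 and 655 SRPBM in Control and 1281, 1087 and 960.5 SRPBM in TLE, a log2 fold change of 0.68 ± 0.21 (SE; limma, adjusted p = 0.838). TLE 1, the library with the fewest junction reads, was the highest here, and after rescaling the difference was 0.46 and the groups overlapped. Stk3 encodes a kinase of the Hippo pathway. Its circle had 248, 232 and 189 SRPBM in Control and 362, 403 and 459 SRPBM in TLE, a log2 fold change of 0.82 ± 0.26 (SE) as deposited and 0.61 rescaled, without overlap on either scale.

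Homer1 encodes a scaffold that links metabotropic glutamate receptors to the postsynaptic density, and its circle joins exons 2 to 5. It had 427, 316 and 465 SRPBM in Control and 899, 526 and 744 SRPBM in TLE, so each TLE library was higher. The log2 fold change was 0.80 ± 0.26 (SE; limma, adjusted p = 0.838) as deposited and 0.58 rescaled, where the groups overlapped. Leaving out 1 library took its p to at most 0.0511.

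A further 6 of the 10 smallest p without overlap were circles of an adhesion receptor, signalling and active zone genes and less described genes. The circle of Adgrb3, an adhesion G protein-coupled receptor of synapses, had 111, 186 and 129 SRPBM in Control and 238, 263 and 277 SRPBM in TLE. The circle of Nfkb1, the gene of an NF-kappaB subunit, had 137, 195 and 189 SRPBM in Control and 351, 281 and 286 SRPBM in TLE. The circle of Rims2, an organiser of the presynaptic active zone, had 1017, 948 and 1240.4 SRPBM in Control and 1322, 1499 and 1696 SRPBM in TLE. The other three were circles of Strn3, N4bp1 and 6530403H02Rik, and across these 6 the log2 fold change ran from 0.49 (Rims2) to 0.82 (Adgrb3). After rescaling it ran from 0.27 to 0.61, and the Adgrb3 and 6530403H02Rik circles still passed an unadjusted limma p of 0.05. The Rims2, Nfkb1, Strn3 and N4bp1 circles no longer did, and the groups then overlapped for Nfkb1 and Strn3.

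**Figure D5:**
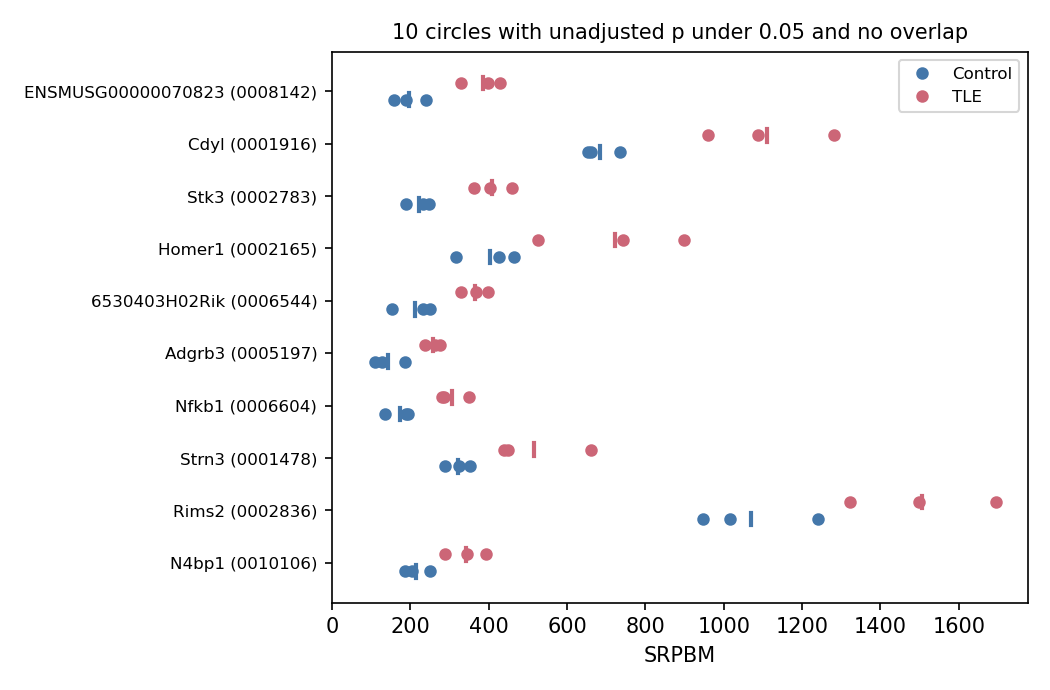
SRPBM of the 10 circles with the smallest unadjusted limma p under 0.05 and no overlap between groups on deposited values, with 1 point per library, Control in blue and TLE in red, and a vertical bar at each group mean. Each lowest TLE point lies to the right of the highest Control point, with Rims2 at 948 to 1696 SRPBM as the most abundant.

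The largest fold change was that of the Nlrp5-ps circle, from a pseudogene, at 1.04 ± 0.33 (SE; limma, adjusted p = 0.838). It had 214, 112 and 121 SRPBM in Control and 207, 421 and 346 SRPBM in TLE, and TLE 1 lay inside the Control range. It was the sole circle of the set with an absolute log2 fold change of at least 1 on the deposited values, and it stood at 0.83 after rescaling.

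The lowest fold changes were those of Pip5k1b, a kinase that makes phosphatidylinositol bisphosphate, Pclo, a giant protein of the presynaptic active zone, Tbcel, Rapgef6, a Rap exchange factor, and Pvt1. The Pip5k1b circle had 590, 418 and 724 SRPBM in Control and 258, 465 and 433 SRPBM in TLE, and the groups overlapped. Its log2 fold change was -0.57 ± 0.28 (SE) as deposited and -0.79 ± 0.22 (SE; limma, adjusted p = 0.939) rescaled, where its unadjusted p passed the threshold. The Pclo circle, a single exon, had 419, 316 and 405 SRPBM in Control and 207, 228 and 372 SRPBM in TLE. Its log2 fold change was -0.51 as deposited and -0.72 rescaled, and after rescaling both circles had each TLE library below each Control library. The Rapgef6 circle had 256, 270 and 241 SRPBM in Control and 155, 219 and 199 SRPBM in TLE, below on both scales.

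Hosts were also grouped by 9 lists of gene function, which took in 129 of the 335 circles. The lists overlap, with Slc8a1 both in the presynaptic list and in that of ion channels and pumps. Circles can share a host: the 16 postsynaptic circles came from 10 hosts and the 12 presynaptic ones from 7. Among postsynaptic hosts, 16 circles had a median log2 fold change of 0.37 (0.15 rescaled), with 13 above 0 (9 rescaled), against 0.17 (0.01 rescaled) over all circRNAs tested, of which 60.5% (50.4% rescaled) were above 0. The Homer1 and Gabra4 circles were higher at an unadjusted limma p under 0.05 and none lower, and after rescaling Homer1 was higher and a Dlgap1 circle lower. For the calls of every list, 4.12% of all circRNAs tested were higher and 1.08% lower as deposited. After rescaling these shares were 2.72% and 2.15%. Of the 206 circles in no list, 13 were higher as deposited. Among presynaptic hosts, 12 circles had a median of 0.24 (0.03 rescaled), with the Rims2 circle higher as deposited and the Pclo circle lower after rescaling. Adhesion and guidance hosts had 6 circles with a median of 0.30 (0.09 rescaled), among which the Adgrb3 circle was higher on both scales.

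Medians of the remaining lists lay between -0.17 and 0.03 after rescaling, and no difference between lists was tested. Chromatin and transcription hosts were the largest list, with 32 circles holding 15.6% of the summed level, and their median was 0.16 (-0.06 rescaled), with the Rere circle higher as deposited. The 19 circles of protein kinase and phosphatase hosts had a median of 0.13 (-0.09 rescaled), with Stk3 higher on both scales and Dgki lower after rescaling. Trafficking and cytoskeleton hosts had 19 circles with a median of 0.04 (-0.17 rescaled), with Rapgef6 lower after rescaling. The 12 circles of ion channels and pumps had 0.20 (-0.02 rescaled) and none passed the unadjusted threshold. The 12 of ubiquitin and protein turnover had 0.24 (0.03 rescaled), with Dcun1d4 higher as deposited, and the 5 of RNA binding and splicing had 0.07 (-0.14 rescaled), with none passing.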

How the data were processed

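Cortex RNA of 3 Control and 3 TLE mice was sequenced after depletion of ribosomal RNA. The authors filtered the reads, found circRNAs with CIRI on BWA-MEM alignments and deposited their levels as a normalized signal, SRPBM. The submitters' processing notes name mm10 and DESeq2. The 6 deposited tables were the same file, and 1 was used. Its values were whole multiples of a step per library (within 0.1 read), with 2 steps as the smallest value, so read numbers were inferred and no count model was used. The signal was compared with limma 3.58.1 (R 4.3.3) on log2(SRPBM + 17.1), with trended eBayes, over the 4271 circRNAs above 0 in at least 3 libraries, a scale that understates changes of low circles. The fit was tested on simulated reads with counting error alone and, apart from circles changed on purpose, the same expected SRPBM in every library. These libraries have a wider spread, which that simulation does not cover. Shares and sums were compared by exact permutation (scipy 1.17.1). Ends were placed on GENCODE M21 exons, and 3515 of 3522 listed host identifiers had a symbol.

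The circles, gene lists and tests were chosen with earlier results of these data known. Circles named were the 10 of highest mean, the 5 highest and 5 lowest fold changes, the 10 smallest p under 0.05 without overlap, the 3 largest and 3 smallest SDs, the 3 on either side of the limit, the 3 longest and 3 shortest, the hosts with most circles and the highest circle of each list. Of the last 2 kinds, and of the 10 circles of smallest p, some are given only by counts and ranges. Some circles that the rule names are not reported here. Circles named beside list counts were named because they passed the threshold. Alternatives were other pseudocounts, filters, scalings, limits and left-out libraries. The p-values set a group difference against the spread between these mice, which limma moderates with that of all circRNAs tested.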

Additional observations from a re-analysis of the deposited data

How the results depend on the processing

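The median log2 fold change of the 335 circles was 0.17 as deposited and was reversed in sign, to near 0, by each scaling. It was -0.043 at the same total, -0.039 at the same total outside the X locus and -0.021 by median ratio. Scaling removes a shift shared by a whole library, so a median near 0 follows largely from it. On the deposited values the median ran from 0.05 (without TLE 3) to 0.30 (without TLE 1). The 20 higher and 0 lower circles at an unadjusted limma p under 0.05 became 7 and 8 at the same total, 7 and 7 outside the X locus, 8 and 5 by median ratio, 1 and 0 with eBayes without trend, and 38 and 2 among the 661 circles with a mean of 100 SRPBM or more. One was lower without a filter or with a filter at the median of all means. Without 1 library the counts ran from 8 to 58 higher and 0 to 3 lower, and after rescaling from 3 to 11 higher (9 without TLE 3) and 5 to 13 lower, a choice made after seeing the data. At the paper's threshold, 0 and 0 became 5 and 2 with the rule on the mean, and 1 circle was higher at a log2 fold change of 1. The 43 above and 3 below without overlap became 15 and 27 at the same total, 15 and 26 outside the X locus (added after seeing the data), 21 and 23 by median ratio and 69 and 6 with the rule on the mean. Without 1 library they ran from 48 to 130 above and 3 to 18 below. Shares of all circRNAs tested are given only for the deposited values and the same total. The other counts show only how the set moved. The set held 684 circles at 50 SRPBM and 155 at 200 SRPBM.

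Replicate numbers are shared by the labels, but nothing ties same-numbered mice, and deviations of same-numbered libraries correlated at 0.0102 to 0.0178 across all circRNAs tested, each library best with its own number. Over the 335 circles these were 0.0234, 0.0327 and -0.0788, and this order did not hold. With the replicate block 23 circles were higher and 1 lower, and rescaled with the replicate block, added later, 6 and 11. Depth limits the set at 10 to 12 reads per library.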
